A study of Rattus norvegicus with 60 samples.

Results

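Methylprednisolone (MP), a synthetic glucocorticoid, was given to uninjured rats, and its early trace in the spinal cord was read from 12 of the 60 arrays of the series: the 6 arrays of S-MP cord and the 6 of S-EtOH cord taken at 2, 4 and 6 h after medication. These arrays were picked by their labels for injury, medication and time alone, and each time holds 2 rats of each group, every rat with its own array. S-MP rats were female Long Evans rats of 8 or 9 weeks that had a sham operation and received MP at 30 mg/kg, dissolved in 70% ethanol, through a vein. S-EtOH rats had the same strain, sex, age and sham operation and received the 70% ethanol vehicle, so both groups carry the effects of anaesthesia, surgery and ethanol. SCI-MP and SCI-EtOH rats received the same infusions after a weight-drop contusion and serve here only for comparison, as do the sham rats killed later. A segment of 5 mm of cord was profiled on Rat Gene 1.0 ST arrays, which read RNA along the whole gene. The sources used here do not say what the sham operation included.

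Glucocorticoids act through the glucocorticoid receptor, which waits in the cytoplasm bound to Hsp90 and its partners, moves to the nucleus when it binds the hormone, and there binds DNA as a dimer or holds back other factors such as NF-kappaB and AP-1. Genes raised through direct binding include chaperone partners, kinases of fasting metabolism and transcriptional repressors, while chemokines and adhesion molecules are among those held back. In nervous tissue the receptor is found in neurons, glia and the endothelium of the vessels.

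The deposited values are log2 values centred per probe set, so 0 is no absence, levels of 2 genes cannot be set against each other, and the presence of cord markers could not be checked on a scale of expression. In 12 arrays of whole tissue, fewer cells of a type and less RNA per cell cannot be told apart. Duplicate arrays correlated at 0.642 to 0.766 in S-EtOH cord, and at 0.345, 0.603 and 0.624 in S-MP cord at 2, 4 and 6 h. The first S-MP duplicate at 2 h stood apart from its partner, and the second S-MP duplicate at 6 h had the lowest mean correlation with the other 11 arrays (0.304, against 0.397 to 0.532 for the rest). No label or methods text names a labelling or scanning batch, so a batch aligned with medication and MP itself cannot be told apart.

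Few genes passed the test of MP in sham cord, and most of their differences were small. How many genes MP changed cannot be read from this count, since 2512 genes (17.5%) lay under an unadjusted p of 0.05 with limma. Of 14324 genes, 473 passed an adjusted p of 0.05 (3.30%), of which 220 were higher (1.54% of all genes) and 253 lower (1.77%) in S-MP than in S-EtOH cord (limma with time as a covariate, 6 arrays a side, Benjamini-Hochberg adjustment over all genes). The median difference was 0.31 on the log2 scale among the higher genes and -0.29 among the lower ones, beside 0.00 over all genes. Only 3 genes differed by more than 1 log2 unit: Fkbp5 and Pi15 were higher and Ccl2 was lower. Past 0.5 log2 units lay 29 higher and 9 lower genes. All 473 genes had the same sign at 2, 4 and 6 h, as 4608 genes did over the whole table (32.2%), and the test itself favours genes whose times agree. For 107 of the 220 higher genes the 6 S-MP arrays lay above all 6 S-EtOH arrays, and for 117 of the 253 lower genes they lay below. Of all genes 1.04% and 1.10% did so. The called genes were chosen on these same arrays by a test that favours such separation, so these counts are no further support for the calls.

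The number of genes past the threshold depended on single arrays. It was 178 to 352 when any 1 of 11 arrays was left out and 978 without the first S-MP duplicate at 2 h, and the counts moved by more than 1.5 times for each array except the second S-MP duplicates at 4 h (343) and at 6 h (352). Without both arrays that stood apart, a setting chosen after seeing the data, 746 genes passed, with 372 of the 473 among them. The 473 genes kept their sign in every one of these fits. They were chosen on these same arrays, so the kept signs are no further support for the calls.

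The core of the palindrome that the glucocorticoid receptor binds, ACANNNTGT, was searched in the 250 bases before the RefSeq start of each gene. The motif is its own reverse complement, so 1 search reads both strands, and it was found before 541 of 11823 genes tested with a promoter in the table (4.58%). It stood before 9 of 184 higher genes (4.89%), 6 of 208 lower genes (2.88%) and 3 of 22 genes of the glucocorticoid-induced list (13.6%). Among the 88 genes named by rule, 73 had a promoter in the table and 5 held the motif, of which Pcdh20, Map3k6 and Cldn11 passed the test of S-MP against S-EtOH cord. Their windows, before 2 genes that rose and 1 that fell, are printed 5′ to 3′ on the gene's strand (RefSeq, GRCr8), with the motif in capitals. A match is a description of letters and not a bound site.
Pcdh20, chr15:70840299-70840548, minus strand: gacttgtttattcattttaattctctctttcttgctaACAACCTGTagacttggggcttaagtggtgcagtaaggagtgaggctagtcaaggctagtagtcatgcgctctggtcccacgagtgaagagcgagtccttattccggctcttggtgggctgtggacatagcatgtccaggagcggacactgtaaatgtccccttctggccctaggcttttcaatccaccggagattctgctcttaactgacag
Map3k6, chr5:150723995-150724244, plus strand: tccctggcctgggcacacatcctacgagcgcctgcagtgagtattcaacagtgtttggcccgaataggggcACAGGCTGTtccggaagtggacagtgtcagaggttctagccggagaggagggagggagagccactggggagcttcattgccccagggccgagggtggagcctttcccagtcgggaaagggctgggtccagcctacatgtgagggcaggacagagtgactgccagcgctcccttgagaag
Cldn11, chr2:114149540-114149789, minus strand: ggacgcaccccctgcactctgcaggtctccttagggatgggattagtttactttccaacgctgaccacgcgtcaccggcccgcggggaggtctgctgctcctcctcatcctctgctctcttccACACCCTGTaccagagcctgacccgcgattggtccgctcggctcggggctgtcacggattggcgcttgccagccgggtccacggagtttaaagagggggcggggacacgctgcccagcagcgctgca

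Known glucocorticoid targets were the list with the most rises. Of 23 measured members of the glucocorticoid-induced list, 7 rose, none fell and 20 had a positive difference, with a median of 0.29. Over all genes 1.54% rose, 49.3% had a positive difference and the median was 0.00. The members that rose were Fkbp5, Zbtb16, Ddit4, Cdkn1a, Map3k6, Bcl6 and Tsc22d3. The count was 4 to 8 when any 1 array was left out, and 4 in a fit over all 60 arrays.

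Fkbp5 encodes a co-chaperone of Hsp90 that lowers the receptor's affinity for hormone. In S-MP cord its centred log2 values were 0.66 and 0.51 at 2 h, 1.56 and 1.40 at 4 h and 1.75 and 1.60 at 6 h, against -0.65 and -0.82 at 2 h, 0.14 and 0.45 at 4 h and 0.46 and 0.41 at 6 h in S-EtOH cord. The values climbed with time in both groups, and at each time both S-MP arrays lay above both S-EtOH arrays. The difference over the 3 times was 1.25 (SE 0.0636, 2.37-fold, adjusted p = 5.5e-06 with limma), and it was 1.32, 1.18 and 1.24 at 2, 4 and 6 h. No other gene had a smaller adjusted p.

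Zbtb16, a zinc finger repressor, had 1.30 and 0.94 at 2 h, 1.69 and 1.57 at 4 h and 1.27 and 1.24 at 6 h in S-MP cord, against -0.13 and -0.19 at 2 h, 0.67 and 0.76 at 4 h and 0.91 and 0.79 at 6 h in S-EtOH cord. The groups did not overlap, and the S-EtOH values climbed with time, with differences between groups of 1.28, 0.91 and 0.40 (mean 0.86, SE 0.122, adjusted p = 0.00532 with limma). Tsc22d3, the glucocorticoid-induced leucine zipper, had 0.18 and 0.55 at 2 h, 0.62 and 0.69 at 4 h and 0.37 and 0.67 at 6 h in S-MP cord, against 0.29 and 0.17 at 2 h, 0.26 and 0.30 at 4 h and 0.02 and -0.07 at 6 h in S-EtOH cord. Here the groups overlapped at 2 h, and the mean difference of 0.35 (adjusted p = 0.0453) lost its call in 11 of 12 fits with 1 array left out.

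Ddit4, an inhibitor of mTORC1 signalling, ran from 0.23 to 0.72 with a median of 0.61 in S-MP cord, against -0.39 to 0.31 with a median of -0.02 in S-EtOH cord (difference 0.61, adjusted p = 0.0112). Cdkn1a, which encodes the cyclin-dependent kinase inhibitor p21, spread over -0.36 to 0.66 (median 0.40) in S-MP cord and over -0.93 to 0.17 (median -0.12) in S-EtOH cord, a difference of 0.48 (adjusted p = 0.0346). Both genes overlapped between the groups over the 6 h and were apart within each time, except Cdkn1a at 2 h. Bcl6, a repressor of transcription, did not overlap at all: its S-MP arrays ran from 0.46 to 0.74 and its S-EtOH arrays from -0.02 to 0.35 (difference 0.39, adjusted p = 0.0167). Nor did Map3k6, a MAP kinase kinase kinase, with 0.27 to 0.57 in S-MP cord and -0.34 to 0.18 in S-EtOH cord (difference 0.42, adjusted p = 0.0399). Cdkn1a lost its call in 9 and Map3k6 in 7 of the 12 fits with 1 array left out.

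The other 16 members did not pass. Pdk4, the kinase that shuts off pyruvate dehydrogenase in fasting, had 0.59 and 0.74 in the S-MP arrays at 2 h, against -0.82 and -1.34 in the S-EtOH arrays. At 4 h it had 0.80 and 0.77 in S-MP cord, against 0.52 and 0.60 in S-EtOH cord, and at 6 h it had 0.69 and 0.90 in S-MP cord, against 0.27 and 0.41 in S-EtOH cord. S-EtOH values were thus low at 2 h alone, and the mean difference was 0.81 (SE 0.213, adjusted p = 0.0667), while at 2 h alone Pdk4 passed (1.75, adjusted p = 0.00509 with limma). Sult1a1, a sulfotransferase, had a difference of 0.55 (adjusted p = 0.0551), Errfi1, an inhibitor of EGF receptor signalling, 0.47 (0.124), Hif3a 0.31 (0.092) and Sgk1, a kinase of sodium transport, 0.29 (0.281). Other textbook targets had differences of 0.14 for Dusp1, the MAP kinase phosphatase, 0.16 for Klf9, 0.07 for Klf15 and -0.01 for Nfkbia, the inhibitor of NF-kappaB, with adjusted p from 0.22 to 0.994. Per1, a clock repressor, had -0.18 (adjusted p = 0.356), and Angptl4 had -0.25 (0.177). Lcn2, Fam107a, Arrdc2, Mertk and Cavin2 had differences of 0.28, 0.27, 0.22, 0.14 and 0.07. Of the receptor and its chaperones, 1 of 13 rose, where 1.54% of all genes did. It was the corepressor Ncor1 at 0.23 (adjusted p = 0.0392), with a list median of 0.04.

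**Figure D1:**
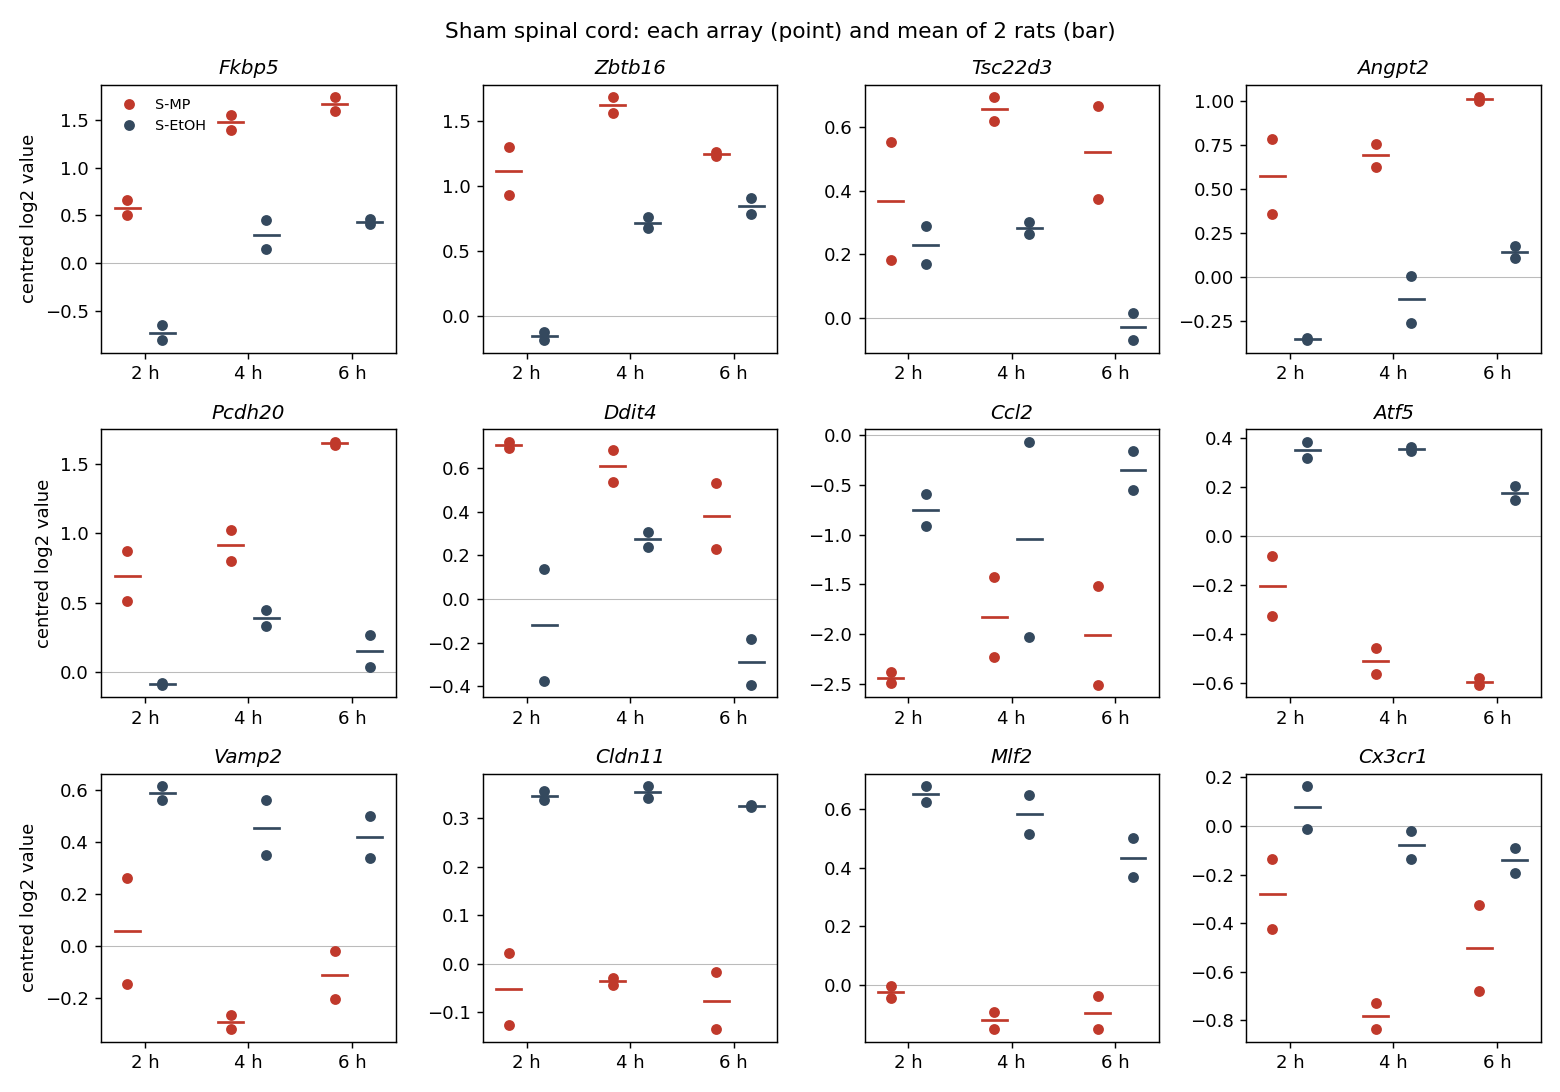
Centred log2 values of 12 genes in sham cord at 2, 4 and 6 h, with 1 point per array, a bar at the mean of 2 rats, S-MP in red on the left and S-EtOH in dark blue on the right of each time. For Fkbp5, Zbtb16, Pcdh20 and Angpt2 all S-MP points lie above the S-EtOH points of the same time, for Atf5, Vamp2, Cldn11, Mlf2 and Cx3cr1 they lie below, and for Ccl2 the 4 h groups overlap.

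Apart from Fkbp5 and Zbtb16, the 12 largest rises were outside the glucocorticoid-induced list. Pi15, a secreted peptidase inhibitor, ran from -0.26 to 1.17 with a median of 0.56 in S-MP cord, against -0.82 to -0.20 with a median of -0.55 in S-EtOH cord (difference 1.09, 2.13-fold, adjusted p = 0.00455). Pcdh20, a protocadherin of cell adhesion, had 0.51 to 1.66 (median 0.95) in S-MP cord and -0.10 to 0.44 (median 0.15) in S-EtOH cord, a difference of 0.94 (adjusted p = 0.0066). Its gap was widest at 6 h, at 1.50 against 0.78 at 2 h and 0.53 at 4 h, though no gene's effect differed between the 3 times after adjustment (0 of 14324, 0.00%, limma F test, with 1894 at an unadjusted p under 0.05). Ctnnal1, a relative of alpha-catenin, lay at 0.41 to 1.20 in S-MP cord, clear of -0.30 to 0.02 in S-EtOH cord (difference 0.91, adjusted p = 0.000451).

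Angpt2 encodes angiopoietin 2, the endothelial ligand that competes with angiopoietin 1 at the Tie2 receptor. Its values were 0.78 and 0.36 at 2 h, 0.62 and 0.76 at 4 h and 1.0 and 1.02 at 6 h in S-MP cord, against -0.36 and -0.35 at 2 h, 0.00 and -0.26 at 4 h and 0.17 and 0.10 at 6 h in S-EtOH cord. The lowest S-MP array lay above the highest S-EtOH array, and the difference was 0.92, 0.82 and 0.87 at 2, 4 and 6 h (mean 0.87, SE 0.0713, adjusted p = 0.000197). It was the only riser among 14 vascular and pressor peptides. Mfsd2a, the lipid transporter of the blood-brain barrier, was the only riser among 19 endothelial and barrier genes, with 0.32 to 0.88 in S-MP cord and 0.00 to 0.25 in S-EtOH cord (difference 0.47, adjusted p = 0.000786). The medians of these lists were 0.04 and 0.01, and 1.54% of all genes rose.

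Peroxisomal and fasting genes gave 2 of the 12 largest rises. Ehhadh, an enzyme of peroxisomal beta-oxidation, had 0.41 to 1.60 (median 1.07) in S-MP cord and 0.09 to 0.47 (median 0.26) in S-EtOH cord, a difference of 0.76 (adjusted p = 0.0222). Pex11a, a factor of peroxisome division, ran from 0.22 to 1.0 in S-MP cord and from -0.30 to 0.25 in S-EtOH cord (difference 0.72, adjusted p = 0.00722). Sesn1, a sestrin that restrains mTORC1, had S-MP arrays at 0.57 to 1.15, above S-EtOH arrays at -0.13 to 0.24 (difference 0.70, adjusted p = 0.00119). In the list of FoxO, fasting and lipid oxidation genes, 3 of 21 rose (Pex11a, Sesn1 and Ddit4), where 1.54% of all genes did. Another 2 fell, where 1.77% of all genes did, and the list's median was 0.07. These were the uncoupling protein gene Ucp2 at -0.40 and the lipid droplet gene Plin2 at -0.18. Neither fall was called with quantile normalization, in a fit over all 60 arrays, with a trended prior or with a replicate block. Cpt1a, the entry step of mitochondrial beta-oxidation, was at 0.00.

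The remaining large rises were Dbx2, a homeobox factor of the developing neural tube (0.81, adjusted p = 0.00152), Prex2, a Rac exchange factor (0.78, 0.00128), Mdm1, a microtubule-binding protein (0.73, 0.0102), and Ppp2r3a, a regulatory subunit of protein phosphatase 2A (0.70, 0.000529). Dbx2 S-MP arrays lay at 0.42 to 1.21, above -0.14 to 0.17 in S-EtOH cord, and those of Mdm1 and Ppp2r3a were apart in the same way. Amd1, the decarboxylase that feeds polyamine synthesis, rose by 0.65 (adjusted p = 0.00746), while Srm, spermidine synthase, fell by 0.25 (adjusted p = 0.0234), so that the polyamine list of 13 genes had 1 member in each direction. The metallothioneins Mt1 and Mt2A, metal-binding proteins raised by glucocorticoids, rose by 0.50 and 0.41 (adjusted p = 0.0406 and 0.047), with the probe sets of each differing by 0.49 and 0.50 for Mt1 and by 0.38 and 0.44 for Mt2A. The genes are close copies of each other, so their probe signals may not be separate, and they lost their calls in 8 and 11 of 12 fits with 1 array left out. Gpx1, glutathione peroxidase, fell by 0.26 (adjusted p = 0.0322) in the same list of 17. The medians of the polyamine and metallothionein lists were 0.01 and -0.02, and of all genes 1.54% rose and 1.77% fell.

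Every cytokine, NF-kappaB and interferon gene that passed in the main fit was lower in S-MP cord, though these calls depended on the fit. Ccl2, the chemokine that draws monocytes, had -2.49 and -2.37 at 2 h, -2.23 and -1.42 at 4 h and -2.51 and -1.51 at 6 h in S-MP cord, against -0.91 and -0.59 at 2 h, -2.03 and -0.07 at 4 h and -0.56 and -0.16 at 6 h in S-EtOH cord. The S-MP arrays were low at all 3 times, and the first S-EtOH duplicate at 4 h was as low as they were. The difference was -1.37 (SE 0.317, 0.387-fold, adjusted p = 0.0406), the largest in either direction, and its call was lost in 9 of 12 fits with 1 array left out. Among 30 cytokines, chemokines and mediators, 2 fell (Ccl2 and Cx3cl1, where 1.77% of all genes fell), none rose and 26 had a negative difference, where 7259 of all 14324 genes did, with a median of -0.18. Cx3cl1, the neuronal chemokine fractalkine, had -0.09 to 0.20 in S-MP cord and 0.21 to 0.54 in S-EtOH cord (difference -0.30, adjusted p = 0.0491). With a trended prior no gene of this list passed, and in a fit over all 60 arrays 1 fell. With quantile normalization 3 fell, with array weights 4, with a replicate block 4 and over the 30 sham arrays 5. The counts over all genes moved between these fits as well. Ccl7 had -0.47 (adjusted p = 0.058), Il1b -0.56 (0.14) and Tnf -0.19 (0.39), without passing.

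Of 28 interferon response genes, 24 had a negative difference and 2 fell, beside 7259 and 253 of all 14324 genes, with a median of -0.13. These were Ifi47, an interferon-induced GTPase (-0.37, adjusted p = 0.0292), and Tap1, the peptide transporter of antigen presentation (-0.34, adjusted p = 0.0231). Birc3, an NF-kappaB target that blocks cell death, was the only one of 11 NF-kappaB genes that fell (-0.37, adjusted p = 0.0406), where 1.77% of all genes did. Both interferon calls were lost with quantile normalization and in a fit over all 60 arrays. The call of Birc3 was lost in that fit, with a trended prior and with a replicate block. Icam1, the endothelial adhesion molecule for leukocytes, had -0.69 to -0.24 (median -0.55) in S-MP cord and -0.51 to 0.37 (median -0.04) in S-EtOH cord, a difference of -0.49 that missed the threshold (adjusted p = 0.0745). None of 12 adhesion, 20 immediate early or 18 acute phase genes passed, with medians of -0.08, -0.10 and 0.04. At an unadjusted p under 0.05, 1, 4 and 3 of them did, as did 17.5% of all genes.

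Blood and immune markers were read beside these lists. All 7 erythrocyte markers had negative differences and none passed (median -0.16), with list means of -1.14 to -0.33 in S-MP arrays and -1.13 to -0.03 in S-EtOH arrays. Hbb-b1, a globin, had -0.89 (adjusted p = 0.219). None of 13 neutrophil or 11 lymphocyte markers passed, and their list means overlapped, at -0.14 to -0.02 and -0.17 to 0.02 in S-MP arrays and at -0.13 to 0.06 and -0.07 to 0.03 in S-EtOH arrays. Since values are centred, it cannot be said which of these markers were absent, and the part of blood content in the lower inflammatory genes was not tested.

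**Figure D2:**
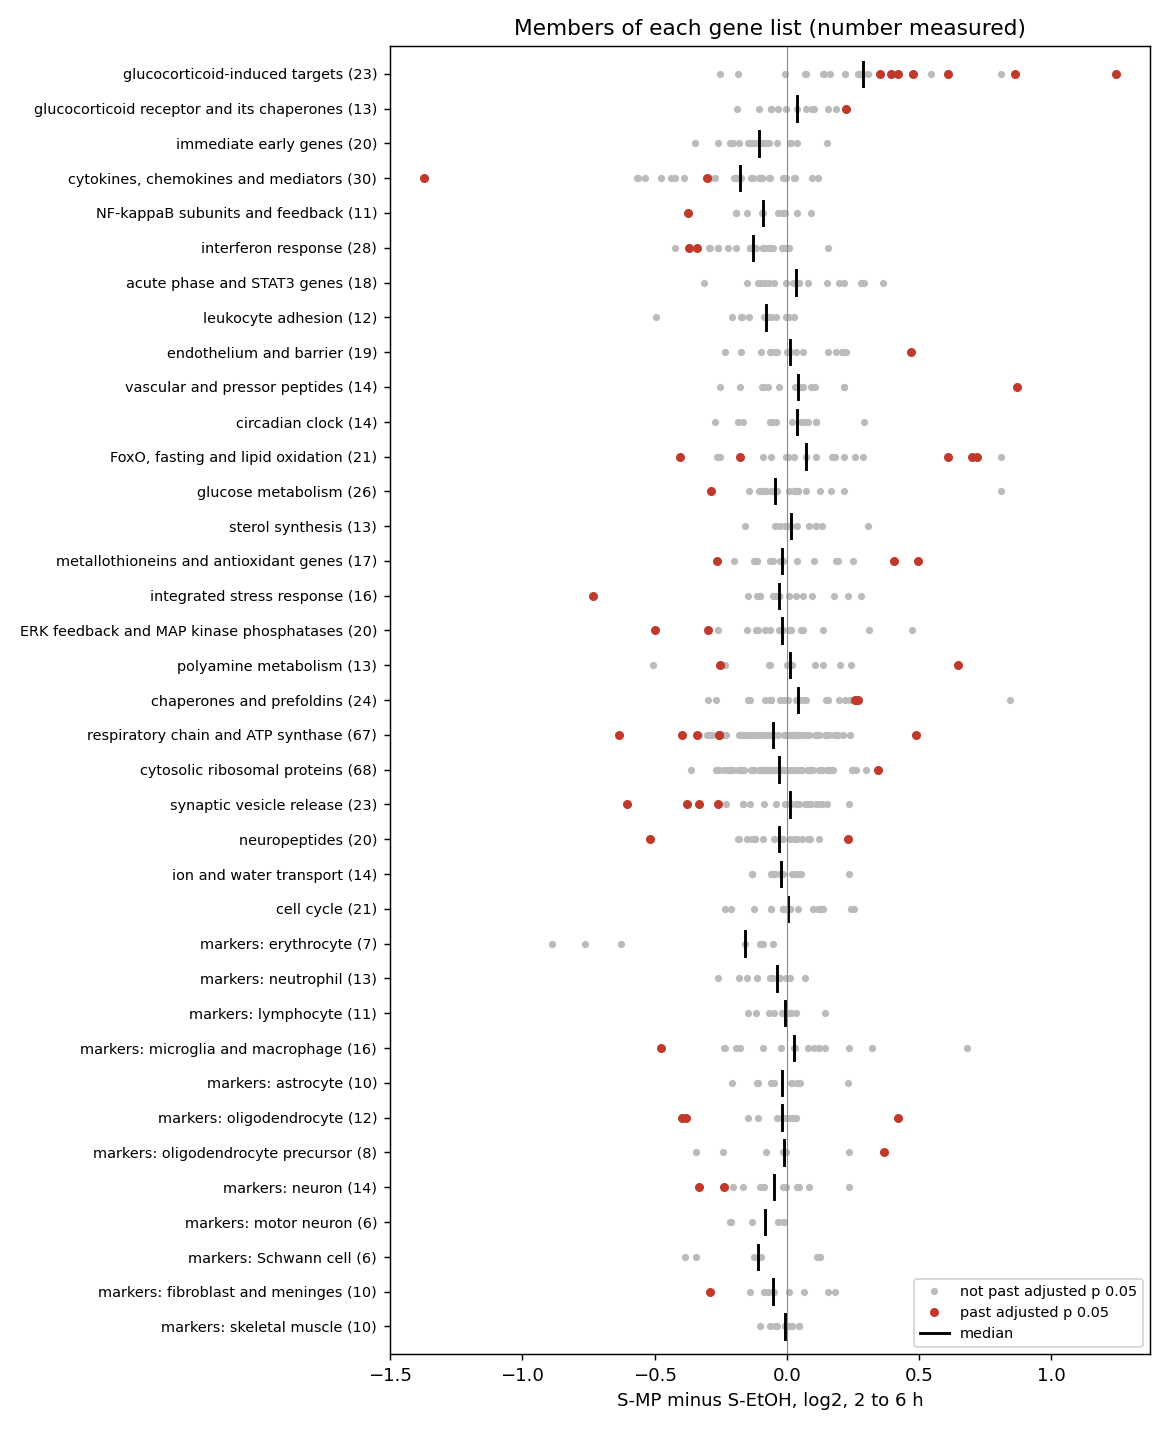
Differences S-MP minus S-EtOH at 2 to 6 h (x axis, log2) for the measured members of 37 gene lists, with 1 point per gene, genes past an adjusted p of 0.05 in red and a black bar at the list's median. The glucocorticoid-induced list reaches furthest to the right, with 7 genes past the threshold and a median of 0.29, and the other medians lie within 0.2 of 0.

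Mlf2, Atf5, Cldn11 and Atp5mc2 were the falls with the smallest p-values. Atf5, a transcription factor of the stress response, had -0.08 and -0.33 at 2 h, -0.46 and -0.56 at 4 h and -0.61 and -0.58 at 6 h in S-MP cord, against 0.39 and 0.32 at 2 h, 0.35 and 0.37 at 4 h and 0.15 and 0.21 at 6 h in S-EtOH cord. Every S-MP array lay below every S-EtOH array (difference -0.73, SE 0.0601, 0.602-fold, adjusted p = 0.000197). It was the only one of 16 integrated stress response genes to pass, where 3.30% of all genes did, and the list's median was -0.03. Mlf2 ran from -0.15 to -0.01 in S-MP cord, against 0.37 to 0.68 in S-EtOH cord (difference -0.64, adjusted p = 0.000123). Pfn1, the actin-binding profilin, lay at -0.71 to -0.36 in S-MP cord and at -0.08 to 0.04 in S-EtOH cord (difference -0.54, adjusted p = 0.00128). For both genes the groups were clear of each other at every time.

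Of 67 genes of the respiratory chain and ATP synthase, 5 fell (where 1.77% of all genes did), 1 rose (1.54%) and the median was -0.05. Those that fell were Atp5mc2 (-0.63, adjusted p = 0.000529) and Atp5mc3 (-0.34, 0.025), which both encode the c subunit of the ATP synthase ring, the complex II gene Sdhc (-0.40, 0.00769), the complex I gene Ndufs7 (-0.26, 0.0099) and the complex IV gene Cox8a (-0.25, 0.044). Ndufb3, also of complex I, rose by 0.49 (adjusted p = 0.0298). Atp5mc2 had -0.15 to 0.04 in S-MP cord and 0.30 to 0.72 in S-EtOH cord, and its 2 probe sets fell by 0.72 and 0.55. Among 68 cytosolic ribosomal protein genes 1 rose, Rps3a at 0.35 (adjusted p = 0.0322), and none fell, with a median of -0.03. Of 26 genes of glucose metabolism 1 fell, the glycolytic enzyme Aldoa (-0.29, adjusted p = 0.00769).

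Neuronal secretion genes fell in part. Vamp2, the SNARE protein of synaptic vesicles, had 0.26 and -0.15 at 2 h, -0.32 and -0.27 at 4 h and -0.02 and -0.21 at 6 h in S-MP cord, against 0.62 and 0.56 at 2 h, 0.35 and 0.56 at 4 h and 0.34 and 0.50 at 6 h in S-EtOH cord. The groups were apart, with a difference of -0.61 (SE 0.0771, adjusted p = 0.00305). Rab3a (-0.38, adjusted p = 0.0222), Syn1 (-0.33, 0.0408) and Slc17a7 (-0.26, 0.037), the GTPase, the synapsin and the glutamate transporter of the vesicles, also fell, so that 4 of 23 genes of vesicle release fell, where 1.77% of all genes did, while the list's median was 0.01. Snap25 and Syt1, of the same fusion machinery, had 0.05 and 0.24 without passing. Sst, the inhibitory peptide somatostatin, had -0.27 to 0.42 (median -0.20) in S-MP cord and 0.25 to 0.53 (median 0.45) in S-EtOH cord (difference -0.52, adjusted p = 0.0221), and Adcyap1, the peptide PACAP, rose by 0.23 (adjusted p = 0.0377). Nnat, an imprinted proteolipid of neural tissue, fell by 0.53 (adjusted p = 0.0107).

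The list of 14 neuron markers held 2 falls (Syn1 and Eno2), where 1.77% of all genes fell. Its median was -0.05, and its mean ran from 0.11 to 0.54 in S-MP arrays and from 0.26 to 0.42 in S-EtOH arrays. At single times the median moved from -0.23 at 2 h through -0.14 at 4 h to 0.19 at 6 h. Eno2, the neuronal enolase, fell by 0.24 (adjusted p = 0.0145). None of 6 motor neuron markers passed. Whether the vesicle genes moved with neuronal content was not tested.

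Among glial genes Cldn11, the claudin of myelin tight junctions, fell. Its values were -0.13 and 0.02 at 2 h, -0.04 and -0.03 at 4 h and -0.02 and -0.14 at 6 h in S-MP cord, against 0.34 and 0.36 at 2 h, 0.37 and 0.34 at 4 h and 0.32 and 0.33 at 6 h in S-EtOH cord. S-EtOH arrays all lay within 0.05 of each other, and the difference was -0.40, -0.39 and -0.40 at the 3 times (mean -0.40, SE 0.0385, adjusted p = 0.000529). Sox10, the oligodendrocyte transcription factor, fell by 0.38 (adjusted p = 0.0145), while Aspa, the enzyme that frees acetate in oligodendrocytes, rose by 0.42 (adjusted p = 0.0392). The call of Aspa was lost with quantile normalization, in a fit over all 60 arrays, with a trended prior and with a replicate block. Myelin genes Mbp, Mog and Mag had 0.02, 0.02 and -0.02, and the list of 12 oligodendrocyte markers had a median of -0.02. Of 16 microglia and macrophage markers 1 fell, where 1.77% of all genes did. It was Cx3cr1, the fractalkine receptor, with -0.84 to -0.14 in S-MP cord and -0.19 to 0.16 in S-EtOH cord (difference -0.47, adjusted p = 0.0153). Aif1 and P2ry12 had -0.24 and -0.19 and C1qa 0.08 without passing. Of the 16 markers 9 had a positive and 7 a negative difference, with a median of 0.03. None of 10 astrocyte markers passed.

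The other lists had at most 2 members past the threshold, where 1.54% of all genes rose and 1.77% fell. The ERK feedback list of 20 had 2 falls, Phlda1 (-0.50, adjusted p = 0.0151) and Spry2, an inhibitor of receptor tyrosine kinase signalling (-0.30, 0.0263). Of 24 chaperones and prefoldins the Hsp70 partners Dnajb1 and Hsph1 rose by 0.27 and 0.26 (adjusted p = 0.0484 and 0.0471), and each lost its call with array medians set to 0. Vcan, a matrix proteoglycan, rose by 0.37 (adjusted p = 0.0186) among 8 oligodendrocyte precursor markers. Of these 8, 2 had a positive and 6 a negative difference, with a median of -0.01. Igf2, a growth factor of the meninges, fell by 0.29 (adjusted p = 0.0484) among 10 fibroblast and meningeal markers, whose median was -0.05. The last of the 12 largest falls were Nkd1, an antagonist of Wnt signalling (-0.52, 0.0334), Prag1 (-0.50, 0.0145) and Cops9, a subunit of the COP9 signalosome (-0.49, 0.0435). No gene passed among 14 clock, 13 sterol synthesis, 14 ion and water transport, 21 cell cycle, 6 Schwann cell or 10 muscle genes.

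Higher and lower genes differed in gene length as annotated. The median RefSeq gene span was 32518.5 bp for the 220 higher genes, 9833 bp for the 253 lower genes and 18003 bp over the 14311 genes with a length. The part of gene length or RNA quality in either group was not tested.

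Each time was also tested alone, with 2 rats a side. At 2 h 5 genes passed (0.0349%): Fkbp5, Pdk4, Zbtb16 and Enc1 were higher (0.0279% of all genes) and Mlf2 lower (0.00698%). At 4 h 5 passed (0.0349%): Fkbp5, Zbtb16 and Gramd2b were higher (0.0209%) and Atf5 and Mlf2 lower (0.0140%). At 6 h 379 passed (2.65%), 246 higher (1.72%) and 133 lower (0.929%), but none passed there without either S-EtOH duplicate at 6 h or without the second S-MP duplicate at 6 h, and 1363 did without either S-MP duplicate at 2 h, which enter through the shared estimate of spread. Enc1 (0.56 at 2 h) and Gramd2b (0.75 at 4 h) were named here because of these calls. The median of the 220 higher genes was 0.25, 0.28 and 0.39 at 2, 4 and 6 h, and that of the 253 lower genes was -0.30, -0.31 and -0.27, where all genes had medians of -0.01, 0.01 and 0.00.

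The same genes were then read in 3 sets of arrays that took no part in choosing them. In injured cord at 2 to 6 h, where 1591 of 14324 genes passed (11.1%, with 180 or 1.26% higher and 1411 or 9.85% lower in SCI-MP than in SCI-EtOH cord), the lower genes of sham cord were lower again. Of the 253, 134 passed in the same direction (53.0%), 0 in the other and 246 had a negative difference (97.2%, beside 71.8% of all genes). Their median in injured cord was -0.35. Ccl2 (-1.19, adjusted p = 0.0321), Sst (-0.79, 0.0153), Vamp2 (-0.67, 0.00348), Pfn1 (-0.63, 0.00538), Atf5 (-0.61, 0.00712) and Nnat (-0.51, 0.0135) were among those called, whereas Cx3cr1 had -0.04 (0.878) and Cops9 0.04 (0.759). Since the median of all genes was -0.09 there, the same count was taken beyond that median, and 93.3% of the 253 still lay below it. With array medians set to 0 the injured arrays gave 804 calls, 252 higher and 552 lower.

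Of the 220 higher genes of sham cord, 19 passed as higher in injured cord (8.64%, beside 1.26% of all genes), 6 passed as lower and 127 had a positive difference (57.7%, beside 28.2% of all genes), with a median of 0.03. Fkbp5 was among those that rose in SCI-MP cord (1.0, adjusted p = 0.00648), as were Zbtb16 (0.68, 0.0351), Prex2 (0.46, 0.00683), Sesn1 (0.36, 0.0237) and Tsc22d3 (0.32, 0.0493). Sgk1, which had not passed in sham cord, rose there by 0.77 (adjusted p = 0.00937). The glucocorticoid-induced list had 4 rises and 2 falls in injured cord and a median of 0.05.

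The test of the difference itself, the MP effect in sham cord minus that in injured cord, called 524 genes (3.66%), 498 of them positive, and 2901 lay under an unadjusted p of 0.05 (20.3%). With array medians set to 0, 115 genes passed, 93 positive and 22 negative, and with quantile normalization 181 passed, 115 positive and 66 negative. The calls of 5 named genes were kept under this centring, with quantile normalization and with each of 24 arrays left out. Ctnnal1 had 0.91 in sham and 0.01 in injured cord (difference 0.91, SE 0.139, adjusted p = 0.00361). Dbx2 had 0.81 and -0.01 (0.82, 0.00361), Mfsd2a 0.47 and -0.18 (0.65, 0.00361), Ppp2r3a 0.70 and 0.03 (0.67, 0.0113), and Ndufb3 0.49 and -0.26 (0.74, 0.00895). In injured cord the effect on these 5 genes missed the threshold, with adjusted p from 0.0918 to 0.98. For Fkbp5 the difference of 0.25 did not pass (SE 0.202, adjusted p = 0.523). These genes were named for their values in sham cord, which enter the difference.

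**Figure D3:**
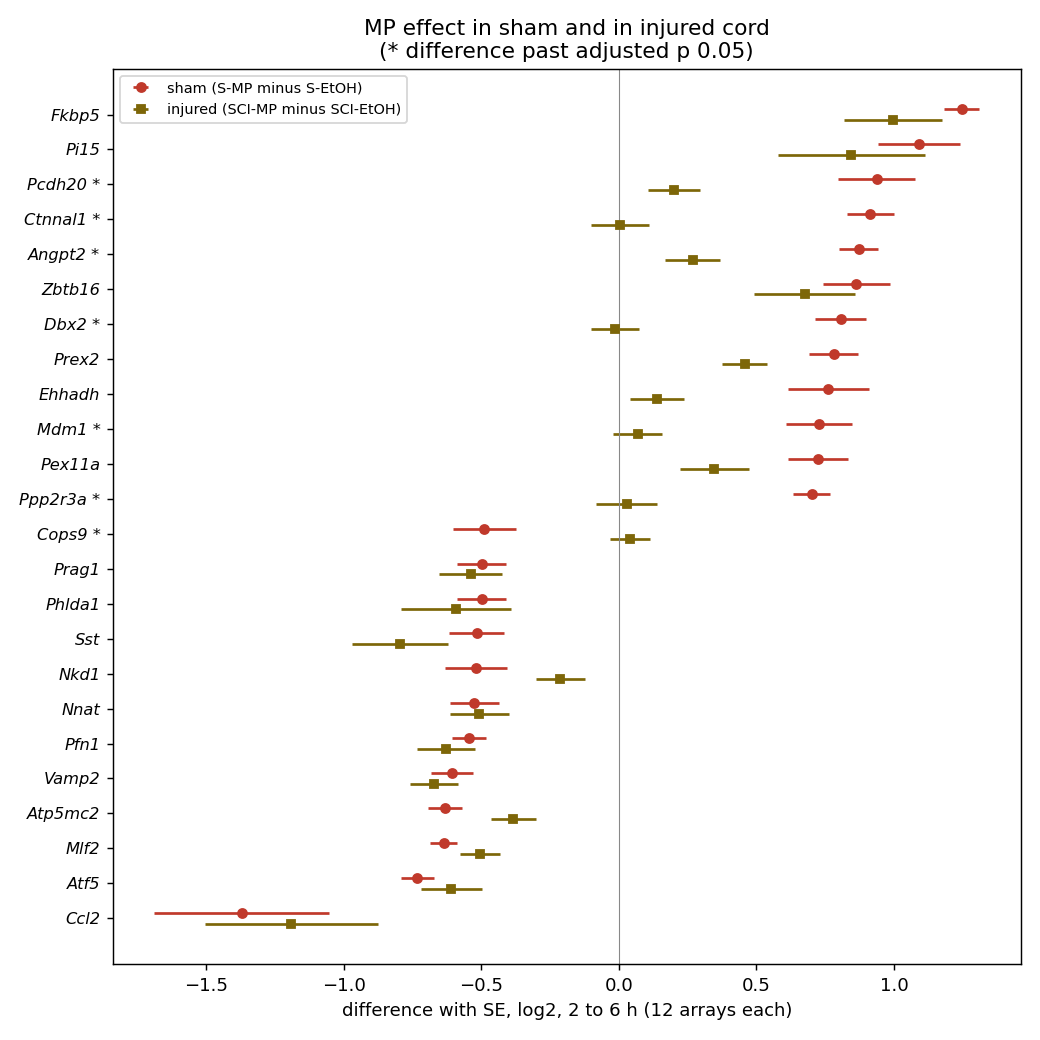
MP effects at 2 to 6 h (x axis, log2, with SE from limma, 12 arrays each) for the 12 largest rises and 12 largest falls of sham cord. Red circles are S-MP minus S-EtOH and brown squares SCI-MP minus SCI-EtOH, and an asterisk marks genes whose difference passed. All falls except Cops9 also lie below 0 in injured cord, with Ccl2 at -1.37 in sham and -1.19 in injured cord and Prag1 at -0.50 and -0.54, while Ctnnal1, Dbx2, Mdm1 and Ppp2r3a lie near 0 in injured cord.

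Later sham arrays held calls for some of the early rises and falls. At 8 and 12 h, 1256 genes passed (8.77%), 916 higher (6.39%) and 340 lower (2.37%), and of the 220 early higher genes 67 passed as higher again (30.5%) and 196 had a positive difference (89.1%, beside 55.1% of all genes). Prex2 (0.81, adjusted p = 0.0238), Ppp2r3a (0.65, 0.0457), Pex11a (0.44, 0.0402), Sesn1 (0.42, 0.0293) and Ndufb3 (0.75, 0.00886) were among them. Angpt2 and Zbtb16 had -0.08 and -0.06, and Fkbp5 had 0.30 (adjusted p = 0.422), with 1.46 and 0.46 in the S-MP duplicates at 8 h, against 0.22 and 0.39 in the S-EtOH duplicates. In SCI-MP cord Fkbp5 stood at 1.21 and 1.25 at 8 h and at 1.25 and 1.41 at 12 h, against 0.76 and -0.29 at 8 h and 0.65 and 0.32 at 12 h in SCI-EtOH cord. Both SCI-MP duplicates were thus above both SCI-EtOH duplicates at 8 and 12 h, while the sham groups were apart at 8 h and overlapped at 12 h. Of the 253 early lower genes 44 passed as lower at 8 and 12 h (17.4%) and 215 had a negative difference (85.0%, beside 44.9% of all genes), with a median of -0.16. The glucocorticoid-induced list had a median of -0.14 at 8 and 12 h in sham cord. The early effect minus that at 8 and 12 h passed for 75 genes (0.524%), Angpt2 among them (difference 0.95, adjusted p = 0.0024), a call it kept in every alternative fit.

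At 24 and 48 h, 89 genes passed (0.621%), 13 higher (0.0908%) and 76 lower (0.531%). Of the 220 early higher genes 5 passed as higher (2.27%), with a median of 0.11, and of the 253 early lower genes 31 passed as lower (12.3%), with a median of -0.24 and 243 negative (96.0%, beside 48.1% of all genes). Leaving out any 1 of the 8 arrays left 0 to 19 calls in all. Fkbp5 was at 0.01 by then. The early effect minus that at 24 and 48 h passed for 4 genes (0.0279%), Fkbp5, Ctnnal1, Angpt2 and Dbx2, each at an adjusted p of 0.0469, and for none of them with quantile normalization.

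Several of the falls were called again at later times. Atf5 had -0.38 at 8 and 12 h and -0.59 at 24 and 48 h (adjusted p = 0.0142 and 0.0245), Atp5mc2 -0.52 and -0.63 (0.0237 and 0.0361), Vamp2 -0.30 and -0.56 (0.0485 and 0.0254) and Nnat -0.36 and -0.56 (0.0455 and 0.0347). Mlf2 had -0.36 (0.0293) and -0.51 (0.0508), and Cldn11 -0.36 (0.0193) and -0.43 (0.101). Atf5, Vamp2 and Cldn11 were lower in both S-MP duplicates than in both S-EtOH duplicates at each of the 7 times. Ccl2, in contrast, had -1.97 at 8 and 12 h (adjusted p = 0.0122) and 0.17 at 24 and 48 h.

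**Figure D4:**
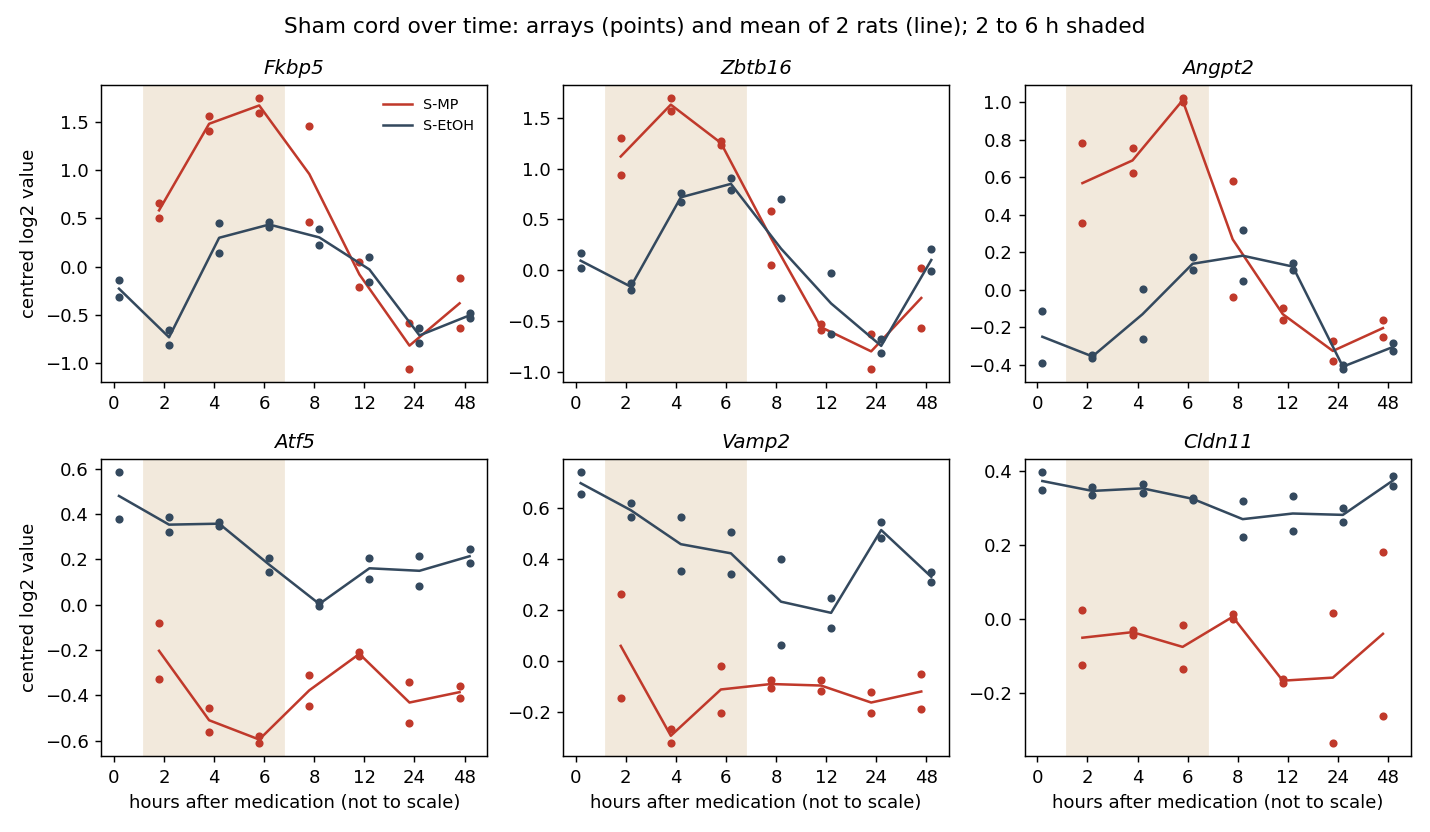
Centred log2 values of 6 genes in sham cord from 0 to 48 h after medication (x axis, not to scale), with points for arrays, lines for the mean of 2 rats, S-MP in red, S-EtOH in dark blue and 2 to 6 h shaded (no S-MP rats at 0 h). Fkbp5, Zbtb16 and Angpt2 part between 2 and 6 h and meet by 12 h, whereas Atf5, Vamp2 and Cldn11 stay lower in S-MP cord at all 7 times.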

How the data were processed

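Per the labels and the study's methods, the authors hybridised RNA of 60 cords to Rat Gene 1.0 ST arrays, summarised them by RMA in GeneSpring GX 11, normalised per array and per gene, and deposited log2 values, 1 per probe set and array. The level that each probe set was centred on, and any labelling or scanning batch, are not given in the sources used here. Counts or depths do not apply to arrays, and precision is limited by their number. Of 27342 probe sets, 15097 had 1 gene symbol, 323 several and 11922 none. Symbols were updated by gene ID (15067 matched) to RefSeq GRCr8, and probe sets of a gene were averaged, giving 14324 genes (499 from several probe sets).

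S-MP minus S-EtOH was fitted with limma 3.58.1 in R 4.3.3 on 12 arrays with time as a covariate (8 residual degrees of freedom), and p-values were adjusted by Benjamini-Hochberg over all genes at 0.05. Genes were called in 1 model per question for single times, injured cord, later times and differences. The labels number the duplicates, and the study's methods give them as separate rats. No filter on dim probe sets was used, since values are centred, and a filter on the spread of duplicates, modelled on that in the methods but on these gene means, kept all 14324 genes. Python 3.11.15 with pandas 2.3.3, numpy 2.4.6 and matplotlib 3.10.9 was used for joins and plots. The fit was tested on simulated data.

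The 88 named genes were the 12 largest rises and 12 largest falls, up to 3 called members of each of 37 lists (or the member with the smallest p), and the glucocorticoid-induced list. Other list members, Enc1 and Gramd2b were named after their values were seen. The comparison, the lists and the motif were chosen with earlier results of these data known. Alternatives were other scalings, other sets of arrays, array weights, another prior, a replicate block, single probe sets, the methods' analysis of variance with Tukey's test, and fits without 1 array or 1 time.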

Additional observations from a re-analysis of the deposited data

Results flagged for a closer look

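Arrays of 2, 4 and 6 h were pooled in each group for an outlier test, so its level and chance rate are only rough guides. A single array stood far from the other 5 of its group, by Dixon's test at the 95% level, in 8 of 176 gene and group pairs, where chance gives about 1 in 20 for arrays of 1 condition. The first S-MP duplicate at 2 h was that array for Sst, the somatostatin gene (0.42), Srebf2, a regulator of sterol synthesis (0.30), and Sox10 (-0.084), all on the centred log2 scale and all above the other 5 S-MP arrays. The second S-MP duplicate at 4 h was apart for Slc18a3, the vesicular acetylcholine transporter (0.047). Among S-EtOH arrays, the first duplicate at 2 h was apart for Cops9 (0.24) and Vcan (-0.49), the first at 4 h for Rps3a (-0.60) and the second at 6 h for the globin gene Hbb-b1 (-2.09).

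The effect of MP differed between sham and injured cord at 2 to 6 h for 11 of the 88 named genes, by limma's test of the difference itself. Of all 14324 genes 524 did so (3.66%). Many named genes were chosen for their values in sham cord, which enter the difference, so the 2 shares cannot be compared. It was larger in sham cord for Ctnnal1 (difference 0.91, adjusted p = 0.00361), Dbx2 (0.82, 0.00361), Ndufb3 (0.74, 0.00895), Ddit4 (0.74, 0.0214), Pcdh20 (0.74, 0.0256), Cdkn1a (0.68, 0.0185), Ppp2r3a (0.67, 0.0113), Mdm1 (0.66, 0.0243), Mfsd2a (0.65, 0.00361) and Angpt2 (0.60, 0.0146), and more negative for Cops9 (-0.53, 0.0401). With array medians set to 0 the call was lost for Pcdh20 (adjusted p = 0.0745), Angpt2 (0.0502), Mdm1 (0.0793), Cops9 (0.0505), Ddit4 (0.0609) and Cdkn1a (0.0616). Cops9 also lost it in 13 of 24 fits with 1 array left out.

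Between early and later sham arrays the effect differed for a few of the named genes, many of which were chosen for the early values that enter the difference. Against 8 and 12 h, where 75 of all genes passed (0.524%), it differed for Angpt2 (0.95, adjusted p = 0.0024), Map3k6 (0.77, 0.0304), Tap1 (0.65, 0.0373) and Atf5 (-0.35, 0.0487). Against 24 and 48 h, where 4 of all genes passed (0.0279%), it differed for Fkbp5 (1.24), Dbx2 (0.97), Ctnnal1 (0.84) and Angpt2 (0.78), each at an adjusted p of 0.0469.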

How the results depend on the processing

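All 473 genes kept their direction under the other scalings, with array weights, and without 1 array or both arrays that stood apart. These fits share the arrays that chose the genes, so a turned sign was unlikely from the start. The number past the threshold did not hold. Over all 60 or the 30 sham arrays, with the trended prior and with the block, the estimates are those of the main fit, so no sign could turn. Nor could one turn without 1 time, since each of the 473 genes had 1 sign at all 3 times. Their direction was not compared for single probe sets or Tukey's test. The number past the threshold was 70 by the methods' analysis of variance with Tukey's test. That count is of another kind: it holds genes called at any of the 3 times, each tested alone over the 4 groups. In the fits of the mean effect the number was 759 with quantile normalization, 168 in a fit over all 60 arrays, 879 over the 30 sham arrays, 884 with array weights, 746 without the 2 arrays that stood apart, and 171, 5 and 110 without the 2, 4 and 6 h arrays. The 5 were Fkbp5, Angpt2, Enc1, Atf5 and Mlf2. Without 1 array it ran from 178 (second S-EtOH duplicate at 6 h) to 978 (first S-MP duplicate at 2 h). It stayed within 1.5 times of 473 with array medians set to 0, a trended prior and probe sets singly (470, 385 and 492). A noise filter modelled on that in the methods removed no gene here, so it tests nothing.

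At single times the counts were 12 at 2 h with quantile normalization, 3 at 4 h with array medians set to 0, and 52, 60 and 941 at 2, 4 and 6 h over the 30 sham arrays, and 1 to 541, 0 to 41 and 0 to 1363 without 1 array. Genes whose effect differed between the 3 times numbered 0 to 254 without 1 array, 254 without the second S-MP duplicate at 2 h. The sham minus injured count was 181 with quantile normalization, 115 with array medians set to 0 and 1237 with array weights, and 215 to 1351 without 1 array. Against 8 and 12 h it was 40 with quantile normalization, 318 with array weights and 23 to 229 without 1 array, and against 24 and 48 h 0, 9 and 0 to 5. The injured count was 804 with array medians set to 0, 2798 with array weights and 649 to 2681 without 1 array. At 8 and 12 h it was 2253 with array weights and 171 to 2321 without 1 array, and at 24 and 48 h 170 with quantile normalization, 217 with array weights and 0 to 19 without 1 array. The cause of these shifts was not tested.

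Replicate numbers gave no steady pairing of the arrays: deviations of same-numbered sham arrays correlated at 0.0266, 0.116 and 0.318 at 2, 4 and 6 h. From 2 to 48 h the correlations ran from -0.293 (24 h) to 0.318 (6 h) in sham cord. In injured cord they ran from -0.574 (48 h) to 0.289 (24 h). With the replicate block the count was 262, with 3 at 2 h, 153 for sham minus injured cord, 25 against 8 and 12 h, 0 against 24 and 48 h, 722 in injured cord, 365 at 8 and 12 h and 0 at 24 and 48 h.

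Signs turned for 3 uncalled genes: Arrdc2 with quantile normalization (-0.014), Acta1 without the 6 h arrays (0.038), and Nfkbia with array weights (0.0078), without the 6 h arrays (0.25), without the 2 arrays that stood apart (0.057) and in 7 of 12 fits without 1 array (all fits -0.12 to 0.084). With 2 rats per group and time, differences at a single time are the least certain, and calls near the threshold, such as Tsc22d3, Cx3cl1, Mt2A and Dnajb1, each lost in 11 of 12 fits without 1 array, should be read so.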
